A study of Homo sapiens with 12 samples.

Results

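Cyclins of the D, E, A and B classes, together with cyclin F and cyclin G2, were followed in A673 cells after transcription was blocked. The members were the 10 rows of the raw count table with the symbols CCND1, CCND2, CCND3, CCNE1, CCNE2, CCNA2, CCNB1, CCNB2, CCNF and CCNG2, out of 26334 listed genes. They were picked by symbol and not by a measured value, although earlier results of these data were known at that time. CCND1, CCND2, CCND3, CCNE1 and CCNE2 were taken as the 5 G1 cyclins, and CCNA2, CCNB1 and CCNB2 as the 3 mitotic cyclins. CCNF and CCNG2 were placed in neither group. CCNA1 and CCNB3, also of the A and B classes, were not members and are among the other cyclins further on.

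A673 is an established Ewing sarcoma cell line, and the derivative used here was labelled shA673-1c and grown with blasticidin and zeocin. Its construct is not described in the sources used here, and all libraries carry it. All 12 library titles also carry the label CTL. The cells received 5 µM actinomycin D, which blocks transcription by binding DNA, for 0, 1, 2 or 4 h, with 3 replicates at each of the 4 time points and 12 poly(A)-selected, stranded libraries in all. The 0 h libraries served as the starting level. Nothing in the labels says that the replicates were separate cultures, so the p-values measure the spread between these samples, which may be technical.

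Cyclins bind and switch on the cyclin-dependent kinases (CDKs), which carry a cell from one phase of its division cycle to the next. D-type cyclins act with CDK4 and CDK6 in G1, E-type cyclins with CDK2 at entry into S phase, cyclin A2 with CDK2 and CDK1 in S phase and G2, and B-type cyclins with CDK1 in mitosis. Cyclin proteins are removed by ubiquitin ligases at set points of the cycle, and their mRNA levels are also set by transcription and decay.

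Library totals ranged from 9147018 to 11194705 counts (median 10107332). Counts are given as CPM, the count as a share of the library total on a fixed scale, after edgeR's TMM scaling, which assumes that most genes do not change. The files hold no spike-in RNA, so each change is relative to the other transcripts, and a fall in RNA per cell that is shared by all genes cannot be seen. JUN and IER2, whose mRNAs are known to be short-lived, fell by 0.89 and 0.84 on the log2 scale per hour when fitted with a straight line. Their mean CPM at 0, 1, 2 and 4 h was 41.23, 21.05, 5.56 and 4.54 for JUN and 65.1, 32.3, 8.42 and 8.12 for IER2. The means follow the order of the time labels, but from 2 to 4 h both were nearly level and check the labels little. FLI1, the 3′ partner of the EWSR1-FLI1 fusion, had 791 to 908 counts at 0 h and 143 to 257 at 4 h, and 5 of 6 Ewing sarcoma markers were detected. The exception was CD99, which had 0 counts in all 12 libraries, as did 8 of 8 other genes of the pseudoautosomal region, which were chosen after that value was seen. The summed counts of the Ewing markers were 2815 to 3665 at 0 h and 1791 to 2666 at 4 h. Markers of blood, vessel, epithelial and stromal cells (PTPRC, PECAM1, EPCAM, DCN and LUM) summed to 7 to 17 counts per library at 0 h and 15 to 21 at 4 h.

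For the sequences in which the transcripts differ, the 3′ UTR of each canonical transcript was read from GENCODE version 44 on GRCh38, in which all 10 cyclins were found. The submitters' notes name hg19, and the count table has no coordinates. ATTTA is the core of AU-rich elements, known from many short-lived mRNAs, and TGTANATA is the element bound by Pumilio proteins. Only the transcript strand was searched. The sites below show, for 6 tested cyclins, the ATTTA match with the highest AT content in the 3′ UTR with its flanks, and for CCNB1 and CCNB2 the TGTANATA match, with the motif in capitals, 5′ to 3′ on the transcript strand and with T for U. They are shown so that the letters can be compared with the slopes that follow. Not printed are the sites of CCNE2, which had the densest ATTTA matches of the 10 cyclins, and the TGTANATA matches of CCNG2.
CCND1, chr11:69652671-69652695, plus strand: aaaatatataATTTAtagttaaggc
CCND3, chr6:41935291-41935315, minus strand: gctcattttaATTTAttaattgctt
CCNA2, chr4:121816614-121816638, minus strand: tatattatagATTTAggtcctaatt
CCNB1, chr5:69177648-69177672, plus strand: ggagtactatATTTAcaaataaaat
CCNF, chr16:2457805-2457829, plus strand: tcccaccattATTTAggttcacctg
CCNG2, chr4:77167055-77167079, plus strand: tgtaaatataATTTAttatgtattc
CCNB1, chr5:69177682-69177705, plus strand: gtgccatcTGTACATAttactgtt
CCNB2, chr15:59124939-59124962, plus strand: cttgatttTGTACATAgtcctctg
The CCND3 site is AT-rich, with 20 of its 25 bases adenine or thymine, while the only CCNF match has 14 of 25. In CCNB1 the ATTTA and TGTACATA sites lie close together and begin 27 and 59 bases past the stop codon. CCNE1 had no match to either motif.

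Before the drug, cyclin D1 was the most abundant of the 10 transcripts. Per kb of canonical transcript, the level at 0 h was 395.4 ± 13.0 CPM for CCND1 (SD, n = 3), 144.8 ± 18.1 for CCNB1, 78.1 ± 2.11 for CCNB2, 70.6 ± 6.53 for CCNA2, 26.7 ± 2.48 for CCND3 and 18.3 ± 1.05 for CCNF. Both E-type cyclins were low, with 4.03 ± 0.44 CPM per kb for CCNE2 and 2.76 ± 0.22 for CCNE1, and CCNG2 stood at 0.733 ± 0.21. CCND2 was near the limit of detection at 0.0986 ± 0.051 CPM per kb. Neighbours in this order did not overlap between libraries with this length. The order of CCNB2 and CCNA2 depended on the transcript used, since the level of CCNB2 was 46.4 CPM per kb with its longest annotated transcript, below CCNA2. With that choice CCNE2 (2.83 to 3.49) also overlapped with CCNE1 (2.56 to 3.00). By 4 h CCND3 (33.7 to 39.1 CPM per kb) overlapped with CCNA2 (38.1 to 46.8), and CCNF had dropped from 18.3 to 4.91.

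**Figure D1:**
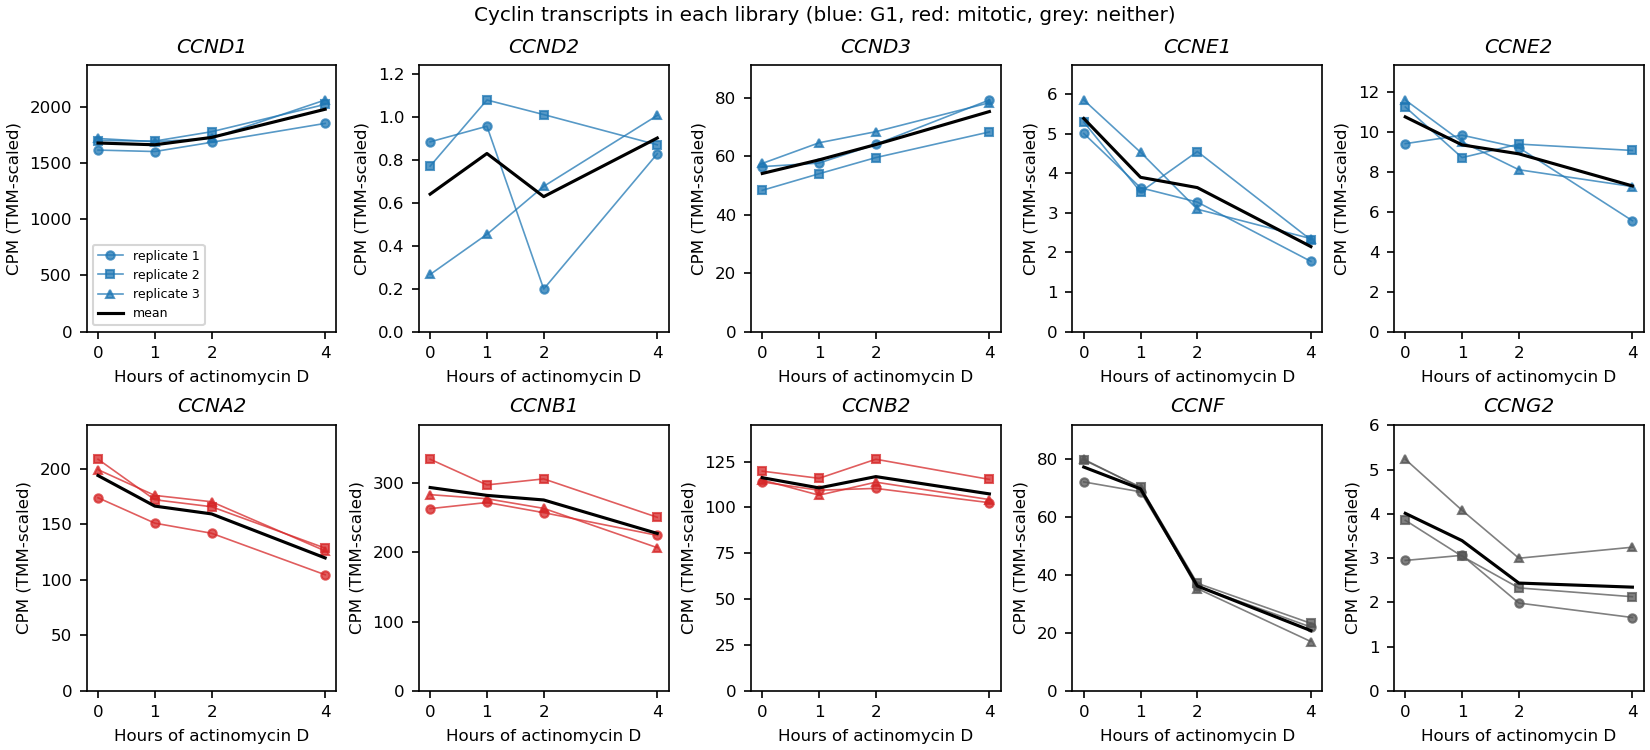
CPM after TMM scaling (vertical axis, from 0, own scale per gene) of each cyclin against hours of actinomycin D (horizontal axis), with 1 line and marker shape per replicate and the mean in black. CCNF dropped between 1 and 2 h in all 3 replicates, CCNB2 lay between 102.6 and 126.3 CPM, and CCND1 and CCND3 ended above their 0 h values on this scale but not when scaled to GAPDH plus ACTB.

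Of the 10 cyclins, 9 averaged 10 counts or more over the libraries and were tested among 12032 genes. With a straight line in time over the 12 libraries, 6 fell (CCNE1, CCNE2, CCNA2, CCNB1, CCNF and CCNG2), as did 32.1% of all tested genes. CCND1 and CCND3 rose relative to TMM scaling, a direction taken by 30.7% of all tested genes and lost when counts were scaled to GAPDH plus ACTB. CCNB2 did not pass the test. The median slope of the 9 tested cyclins was −0.13 log2 units per hour, against 0.0093 over all tested genes. At 4 h against 0 h the same 6 cyclins were lower, where 31.6% of tested genes were lower, and the same 2 were higher on TMM scaling (28.7% of tested genes). On GAPDH plus ACTB CCND1 was lower at 4 h and CCND3 did not pass the test. In 5 of the 6, all 4 h libraries lay below all 0 h libraries (33.0% of tested genes), and for CCND1 and CCND3 all lay above (30.4%). These calls are edgeR quasi-likelihood tests with Benjamini-Hochberg adjustment over all tested genes and a threshold of 0.05. The fits had no block for the replicate number, although same-numbered libraries deviated together. With that block CCNB2 was also called lower at 4 h (edgeR adjusted p = 0.0208). Over all tested genes the block called 4328 lower and 4429 higher at 4 h. In bulk RNA, fewer cells of a phase and less RNA per cell cannot be told apart.

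The direction of the D-type cyclins depended on the scaling. Over all tested genes, TMM scaling gave 3797 lower and 3448 higher calls at 4 h against 0 h with a median log2 difference of 0.028. Library totals gave 4618 and 2121 with a median of −0.12. Scaling to GAPDH plus ACTB gave 7612 and 111 with a median of −0.52, since on TMM scaling GAPDH and ACTB were themselves higher at 4 h by 0.59 and 0.50 log2 units. Under GAPDH plus ACTB, 8 of the 9 tested cyclins were lower at 4 h and 0 were higher. The cyclins that fell on TMM scaling fell further there, with −1.86 for CCNE1, −1.095 for CCNE2, −1.24 for CCNA2 and −0.92 for CCNB1. CCNF was at −2.45 and CCNG2 at −1.32. The half-lives given further on hold on TMM scaling only. The count ratios of one cyclin to another, given further on in percent, do not depend on the scaling.

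**Figure D2:**
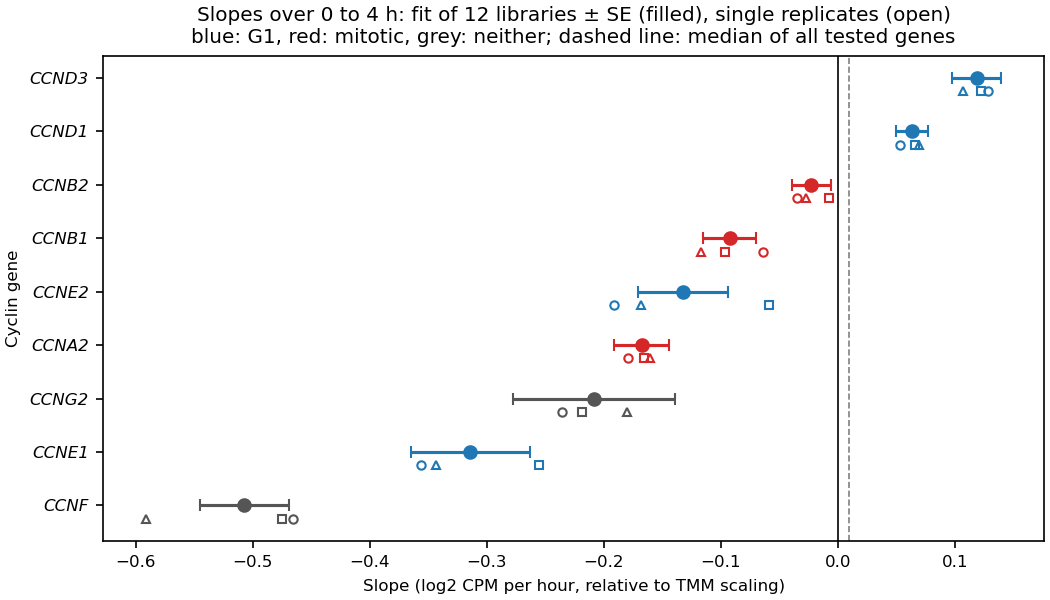
Slope in log2 CPM per hour (horizontal axis) of the 9 tested cyclins (vertical axis), as the fit of 12 libraries ± SE (filled) and the slopes of single replicates (open, same shapes as in the plot of CPM by time). CCNF was lowest at −0.51 and CCND3 highest at 0.12 on TMM scaling, where the D-type slopes are positive but turn negative when scaled to GAPDH plus ACTB; the dashed line marks the median of all tested genes at 0.0093.

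The D-type cyclins take up mitogen signals and start phosphorylation of the retinoblastoma protein RB1. CCND1 lies at chr11:69641156-69654474 (GRCh38, plus strand) with 5 exons and a 3′ UTR of 3192 bases. Its CPM values in replicates 1, 2 and 3 were 1613, 1698 and 1716 at 0 h, and 1600, 1693 and 1687 at 1 h. They were 1682, 1776 and 1718 at 2 h, and 1850, 2019 and 2058 at 4 h. All 3 libraries at 4 h were above the 9 earlier ones, of which the highest was 1776. The log2 difference of CCND1 at 4 h was 0.24 (SE 0.053, edgeR adjusted p = 0.001456) and the slope 0.063 per hour (SE 0.014, edgeR adjusted p = 0.0007223), in a positive direction in 3 of 3 replicates on TMM scaling. With library totals the difference was 0.093 (edgeR adjusted p = 0.188), and with GAPDH plus ACTB it was −0.31 (edgeR adjusted p = 0.0145). The slope between 2 and 4 h minus that between 0 and 2 h was 0.077 (edgeR adjusted p = 0.7435), and 0.076 with the replicate number as a block (edgeR adjusted p = 0.0238).

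CCND3 (chr6:41934934-42050357, minus strand, 3′ UTR of 988 bases) had CPM values of 56.5, 48.4 and 57.6 at 0 h, 57.7, 54.0 and 64.6 at 1 h, and 64.1, 59.6 and 68.4 at 2 h. At 4 h they were 79.3, 68.4 and 78.4, and each replicate was then at its highest. The log2 difference at 4 h was 0.47 (SE 0.092, edgeR adjusted p = 0.0004833), with a slope of 0.12 per hour (SE 0.021, edgeR adjusted p = 0.0001092) that was positive in 3 of 3 replicates on TMM scaling. On GAPDH plus ACTB the difference was −0.075 (edgeR adjusted p = 0.614). At 2 h against 0 h it was 0.24 (edgeR adjusted p = 0.06273), and with the replicate block 0.24 (edgeR adjusted p = 0.000408). As a count ratio that needs no scaling, CCND3 was 3.50%, 2.85% and 3.36% of CCND1 at 0 h and 4.29%, 3.39% and 3.81% at 4 h, a higher share in each replicate with overlap between the groups.

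CCND2, the third D-type cyclin, was not tested. Its counts were 9, 8 and 3 at 0 h, 10, 11 and 5 at 1 h, 2, 10 and 7 at 2 h, and 7, 9 and 9 at 4 h, with a mean of 7.5 over the 12 libraries. The groups overlapped at every time, and a difference was not detectable at this depth.

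The E-type cyclins, which activate CDK2 for the start of DNA replication, fell. CCNE1 (chr19:29811991-29824312, plus strand, 12 exons) has a 3′ UTR of 535 bases. Its counts were 51, 55 and 66 at 0 h, 38, 36 and 50 at 1 h, 33, 45 and 32 at 2 h, and 15, 24 and 21 at 4 h. Each 4 h library was below every earlier one. In CPM the replicates were at 5.01, 5.30 and 5.86 at 0 h and at 1.77, 2.32 and 2.35 at 4 h, a log2 difference of −1.32 (SE 0.21, edgeR adjusted p = 9.587e-05). The slope was −0.31 per hour (SE 0.051, edgeR adjusted p = 4.92e-05), with −0.36, −0.25 and −0.34 in single replicates, and it corresponds to a half-life of 3.18 h relative to the TMM scaling. At 2 h against 0 h CCNE1 was at −0.57 (edgeR adjusted p = 0.03823), and this call was lost without replicate 1 (edgeR adjusted p = 0.176), without replicate 2 (0.0626) and without replicate 3 (0.229).

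CCNE2, on chromosome 8, has a 3′ UTR of 1408 bases. It had 96, 117 and 131 counts at 0 h, 103, 89 and 105 at 1 h, 93, 93 and 84 at 2 h, and 47, 94 and 65 at 4 h. The 4 h library of replicate 2, with 94 counts, was close to the 0 h library of replicate 1 with 96, but in CPM the groups were apart (9.43, 11.3 and 11.6 at 0 h, and 5.56, 9.09 and 7.27 at 4 h). CCNE2 was lower at 4 h by a log2 difference of −0.55 (SE 0.16, edgeR adjusted p = 0.009622), with a slope of −0.13 per hour (SE 0.038, edgeR adjusted p = 0.006459), a half-life of 7.55 h on this scaling. The single replicates gave −0.19, −0.059 and −0.17. Without replicate 1 the adjusted p of the slope was 0.0505 and without replicate 3 it was 0.0575 (edgeR), and the call at 4 h was lost without replicate 3 (edgeR adjusted p = 0.068).

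Among the mitotic cyclins, CCNA2 fell most. Cyclin A2 is needed for S phase and for entry into mitosis, and its gene lies at chr4:121816444-121823883 on the minus strand, with 8 exons and a 3′ UTR of 1194 bases. CCNA2 was at 174.0, 208.7 and 199.3 CPM at 0 h, 151.1, 172.2 and 176.1 at 1 h, 142.0, 165.9 and 170.4 at 2 h, and 104.6, 128.6 and 126.1 at 4 h. Every replicate was lower at each later time, and the 0 and 4 h groups did not overlap. The log2 difference at 4 h was −0.69 (SE 0.098, edgeR adjusted p = 3.104e-05) and the slope −0.17 per hour (SE 0.023, edgeR adjusted p = 1.004e-05), a half-life of 5.97 h on this scaling. Replicates gave −0.18, −0.17 and −0.16. At 2 h CCNA2 was at −0.28 (edgeR adjusted p = 0.04046), a call that was lost without replicate 2 (0.235) and without replicate 3 (0.0735). At 1 h it was at −0.22 (edgeR adjusted p = 0.3124), which passed with the replicate block (edgeR adjusted p = 7.92e-05).

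CCNB1, the main partner of CDK1 in mitosis (chr5:69167135-69178245, plus strand, 9 exons, 3′ UTR of 614 bases), fell less. Its CPM values were 263.3, 334.7 and 283.5 at 0 h, 272.2, 297.6 and 277.6 at 1 h, and 257.5, 306.3 and 263.7 at 2 h. At 4 h they were 224.7, 250.8 and 206.9, below all 0 h values, while those at 1 and 2 h overlapped with 0 h. The log2 difference at 4 h was −0.37 (SE 0.096, edgeR adjusted p = 0.004126) and the slope −0.092 per hour (SE 0.023, edgeR adjusted p = 0.001988), or a half-life of 10.8 h on this scaling. The slope over 0, 1 and 2 h alone was −0.035 (edgeR adjusted p = 0.585).

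CCNB2, the second B-type cyclin, has a 3′ UTR of 168 bases, the shortest of the 10. Its CPM values were 113.9, 119.8 and 115.0 at 0 h, 109.4, 115.9 and 106.7 at 1 h, 110.4, 126.3 and 113.8 at 2 h, and 102.6, 115.3 and 104.3 at 4 h. Replicate 2 was highest at each time, and its 4 h value lay among those of 0 h. The slope of CCNB2 was −0.023 per hour (SE 0.017, edgeR adjusted p = 0.2523) and the log2 difference at 4 h −0.11 (SE 0.067, edgeR adjusted p = 0.1634). With the replicate block the difference at 4 h was −0.11 (edgeR adjusted p = 0.0208), with library totals −0.26 (edgeR adjusted p = 0.00286) and with GAPDH plus ACTB −0.66 (edgeR adjusted p = 2.27e-05).

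CCNF had the steepest fall of the 9. Cyclin F is the founding member of the F-box proteins, binds the SCF ubiquitin ligase and activates no known CDK. The gene lies at chr16:2429394-2458854 on the plus strand, with 17 exons and a 3′ UTR of 1834 bases. CCNF counts were 734, 827 and 901 at 0 h and 718, 717 and 773 at 1 h, and then 364, 367 and 365 at 2 h and 186, 241 and 152 at 4 h. In CPM this was 72.1, 79.7 and 79.9, then 68.7, 70.3 and 70.1, then 36.1, 37.1 and 35.3, and 22.0, 23.3 and 17.0 at 4 h. The libraries of 2 h lay far below those of 1 h with no overlap, and those of 4 h below those of 2 h. The log2 difference from 0 h was −0.15 at 1 h (SE 0.084, edgeR adjusted p = 0.4851), −1.09 at 2 h (SE 0.088, edgeR adjusted p = 5.692e-07) and −1.89 at 4 h (SE 0.094, edgeR adjusted p = 1.56e-09). The slope over all times was −0.51 per hour (SE 0.038, edgeR adjusted p = 1.452e-08), with −0.47, −0.48 and −0.59 in single replicates and a half-life of 1.97 h on this scaling. It ranked at the 4.56th percentile from the lowest of all tested slopes.

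A contrast of 2 h against 1 h was added after these values were seen. It gave −0.95 for CCNF (SE 0.089, edgeR adjusted p = 9.854e-06), the only one of the 9 cyclins called lower, against 12.5% of all tested genes. A fall in this hour was not particular to CCNF. In the partner lists taken up further on, 5 of 14 other cyclins and 5 of 13 RB and E2F genes were lower and 0 higher. So were 3 of 9 CDK switches, 1 of 4 CDK inhibitors and 0 of 4 CDKs, also with 0 higher. Of 11 cyclin-destruction genes 3 were lower and 1 higher. Mean CPM of CCNT1 was 65.1 at 1 h and 32.5 at 2 h. The change in the second hour minus that in the first, also added afterwards, was −0.80 for CCNF (SE 0.15, edgeR adjusted p = 0.05281), and 0.175% of tested genes were past the threshold in either direction. For CCNF this difference passed with the replicate block (edgeR adjusted p = 1.02e-05) and in 6 other alternatives. Over all tested genes the block called 818 lower and 504 higher in this contrast. The 6 others called from 21 (DESeq2's size factors) to 93 (library totals) lower and 0 to 2 higher. Of the 9 cyclins, 0 were called in this contrast, 1 (CCNF) had an unadjusted p below 0.05, and DESeq2 called 1 (CCNF). Within each library, CCNF was 27.4%, 23.8% and 28.2% of the CCNB1 count at 0 h and 25.2%, 23.6% and 25.2% at 1 h. It was 14.03%, 12.1% and 13.4% at 2 h and 9.79%, 9.29% and 8.22% at 4 h. The 2 h ratios lay below all ratios at 1 h, and these ratios do not depend on the scaling.

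CCNG2, an atypical cyclin linked to cell cycle arrest, was at the edge of what these libraries could measure. It lies on chromosome 4 with a 3′ UTR of 4136 bases. Its counts were 30, 40 and 59 at 0 h, 32, 31 and 45 at 1 h, 20, 23 and 31 at 2 h, and 14, 22 and 29 at 4 h. Replicate 3 was highest at each time, and its 4 h value of 3.25 CPM was above the 2.95 CPM of replicate 1 at 0 h, so the groups overlapped. The log2 difference at 4 h was −0.78 (SE 0.28, edgeR adjusted p = 0.02891) and the slope −0.21 per hour (SE 0.069, edgeR adjusted p = 0.01479), or a half-life of 4.80 h on this scaling. All 3 replicates had a negative slope (−0.24, −0.22 and −0.18). The call at 4 h was lost without replicate 1 (edgeR adjusted p = 0.0671) or replicate 2 (0.181), and without the 4 h library of replicate 2 alone (0.0902), and the slope was lost without replicate 2 (0.0959). At 2 h CCNG2 was at −0.72 (edgeR adjusted p = 0.06531), which passed with the replicate block (edgeR adjusted p = 0.00305).

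Early in the time course little of this passed in the fits without the replicate block. At 1 h against 0 h, 0 of the 9 tested cyclins passed edgeR's test, where 2.58% of all tested genes were called in either direction, while 2 (CCNE1 and CCNA2) had an unadjusted p below 0.05 and DESeq2 called 0. At 2 h, 3 were lower (CCNE1, CCNA2 and CCNF), as were 19.4% of tested genes, and 0 were higher (10.8% of tested genes). CCND3 (0.24 on TMM scaling, −0.0012 on GAPDH plus ACTB) had an unadjusted p below 0.05 and was called higher by DESeq2. CCNG2 (−0.72) also had an unadjusted p below 0.05 at 2 h and was not called. The slope from 2 to 4 h minus that from 0 to 2 h passed for 0 of 9 cyclins, against 2.46% of tested genes. No cyclin had an unadjusted p below 0.05 in this contrast, and DESeq2 called 0. With the replicate block CCNA2 was called lower at 1 h, where 1261 of all tested genes were lower and 744 higher. At 2 h the block added CCND3 as higher and CCNG2 as lower, where 2877 genes were higher and 3188 lower. In the contrast of the 2 slopes it called CCND1 higher, as it did 585 of all tested genes.

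G1 and mitotic cyclins were then compared by their slopes within each replicate. The mean slope of the 3 mitotic cyclins was −0.093, −0.090 and −0.10 log2 units per hour in replicates 1, 2 and 3, and that of the 4 tested G1 cyclins was −0.091, −0.031 and −0.084. The mitotic minus G1 difference was −0.0014, −0.059 and −0.018, with a mean of −0.026 ± 0.030 (SD, n = 3), which is less than its spread between replicates. Both groups were mixed within. Taken apart after these values were seen, the D-type cyclins had a mean slope of 0.091, 0.095 and 0.088 on TMM scaling, and the E-type cyclins of −0.27, −0.16 and −0.26. The mitotic cyclins lay between them, with a mitotic minus D-type difference of −0.19 ± 0.0033 and a mitotic minus E-type difference of 0.13 ± 0.060 (SD, n = 3). With CCNF counted as mitotic, the mitotic minus G1 difference was −0.13 ± 0.032.

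Pairs of cyclins within a replicate showed the same order. The slope of a pair was the difference of 2 straight-line slopes of log2 CPM, with a prior count of 2 added before the log. Scaling cancels in these slopes except through the prior count, which weighs most on the low counts of CCNE1 and CCNE2. The ratios in percent are plain counts. Of the 12 pairs of a mitotic and a tested G1 cyclin, the mitotic cyclin fell relative to its partner in all 3 replicates in 6, which were all pairs with CCND1 or CCND3. In 4 it rose relative to its partner in all 3 replicates, namely CCNA2, CCNB1 and CCNB2 against CCNE1, and CCNB2 against CCNE2. CCNA2 and CCNB1 against CCNE2 had mixed signs. The log2 ratio of CCNA2 to CCND1 changed by −0.23 ± 0.0013 per hour (SD, n = 3), that of CCNB1 to CCND1 by −0.16 ± 0.035, and that of CCNB2 to CCND1 by −0.087 ± 0.011. The ratio of CCNB2 to CCNE1 changed by 0.28 ± 0.033 per hour. In counts, CCNB1 was 16.3%, 19.7% and 16.5% of CCND1 at 0 h and 12.2%, 12.4% and 10.1% at 4 h. CCNA2 went from 10.8%, 12.3% and 11.6% of CCND1 to 5.66%, 6.37% and 6.13%, and CCNE1 from 0.311%, 0.312% and 0.341% to 0.096%, 0.115% and 0.114%. For each of these 3 ratios the 0 and 4 h libraries did not overlap.

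**Figure D3:**
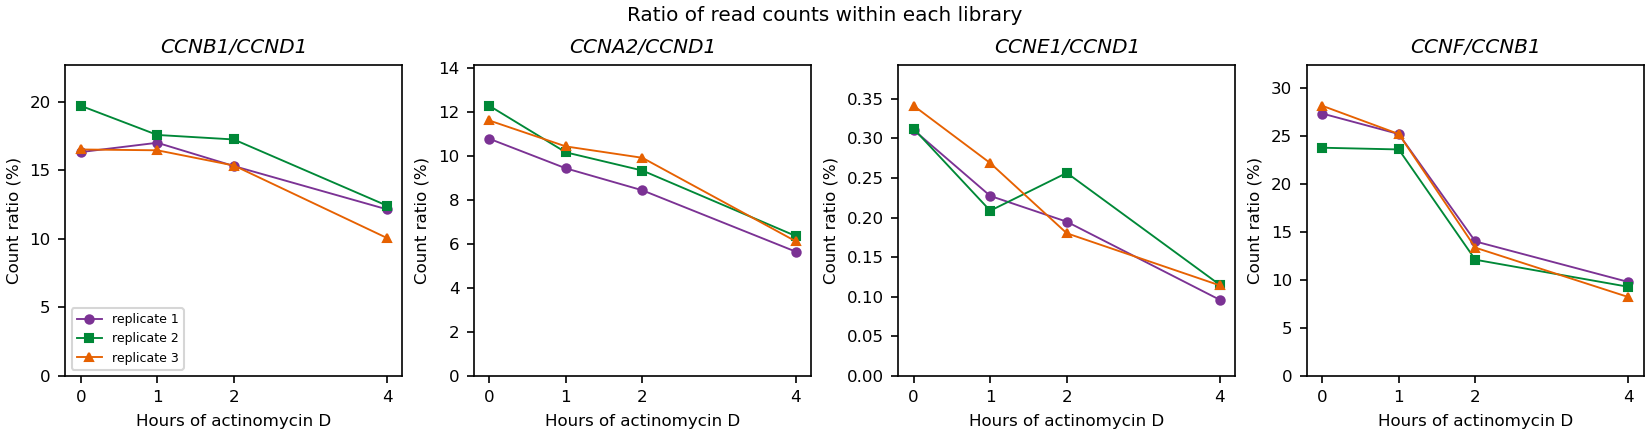
Ratio of the read counts of 2 cyclins within each library in percent (vertical axis, from 0) against hours of actinomycin D (horizontal axis), with 1 line per replicate. CCNB1, CCNA2 and CCNE1 fell against CCND1 in all 3 replicates by 4 h, and CCNF fell against CCNB1 between 1 and 2 h, from 23.6% to 25.2% to between 12.1% and 14.03%.

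ATTTA matches in the 3′ UTR did not order the tested cyclins by slope on TMM scaling. No test was run, and carriers of TGTANATA were not compared with the others by slope. TTATTTATT, a longer AU-rich motif that contains ATTTA, was in 0 of the 10 cyclins and in 10.1% of the 3′ UTRs of 10819 tested genes. ATTTA was in 75.1% of these 3′ UTRs, with a median of 1.78 matches per kb. CCNE2 and CCNB1 had the densest matches, 10 (7.10 per kb) and 4 (6.51 per kb), more than 97.9% and 91.5% of 3′ UTRs of like length (at least 0.8 times as long as theirs and at most longer by the inverse of that factor). Their slopes of −0.13 and −0.092 were shallower than that of CCNE1 at −0.31, which had 0 matches where 56.8% of 3′ UTRs of like length had at least 1. CCNF had 1 match (0.55 per kb, median of like length 4) and the steepest slope. CCND1 had 7 matches (2.19 per kb, median of like length 7) and CCND3 2 (2.02 per kb, median 2), close to CCNA2 with 3 (2.51 per kb, median 2) and CCNG2 with 9 (2.18 per kb, median 9), although on TMM scaling the slopes of the D-type cyclins were positive and those of the other 2 negative. CCNB2 had 0 ATTTA and 1 TGTANATA, a motif found in 5.1% of 3′ UTRs of like length and in 31.7% of all. TGTANATA was also in CCNB1 (1), CCNE2 (2), CCNG2 (2) and CCND2 (1). These matches are letters in an annotated transcript, and which 3′ UTR the cells used was not tested.

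**Figure D4:**
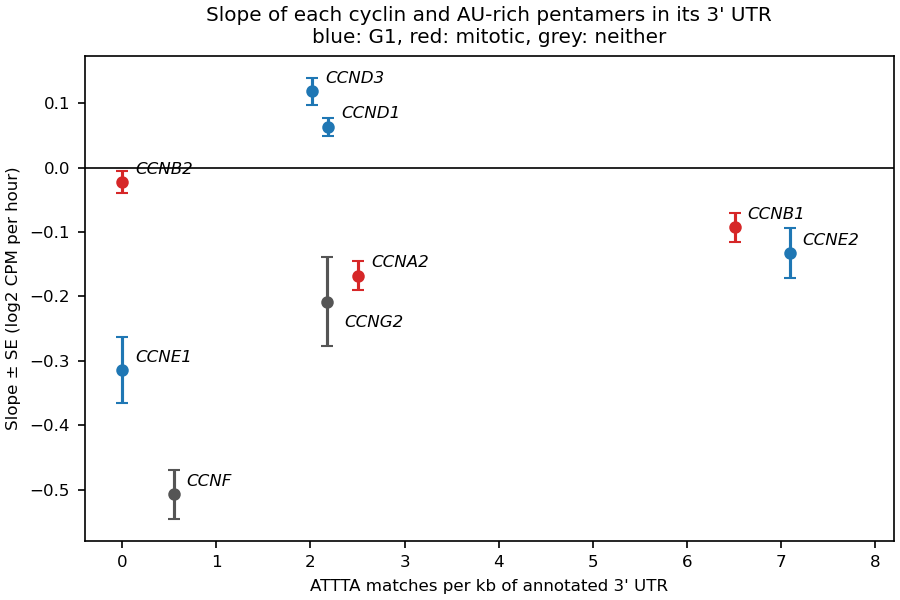
Slope ± SE in log2 CPM per hour (vertical axis) against ATTTA matches per kb of annotated 3′ UTR (horizontal axis) for the 9 tested cyclins. CCNF (0.55 per kb) and CCNE1 (0 matches) had the steepest falls, and CCNE2 (7.10 per kb) and CCNB1 (6.51 per kb) shallower ones; the positive slopes of CCND1 and CCND3 hold on TMM scaling but not on GAPDH plus ACTB.

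The partners of the cyclins were read from lists of CDKs, CDK inhibitors, RB and E2F proteins, CDK switches, cyclin-destruction genes and other cyclins, at 4 h against 0 h. Calls of a rise in these lists hold on TMM scaling and on DESeq2's size factors except where named. With GAPDH plus ACTB 0 genes of these lists were called higher. On that scaling, 4 of 4 CDKs, 4 of 4 CDK inhibitors and 12 of 13 RB and E2F genes were lower. So were 7 of 9 CDK switches, 10 of 11 cyclin-destruction genes and 11 of 14 other cyclins. Over all tested genes, 7612 of 12032 were lower there. They include genes that did not pass on TMM scaling, such as CDK1 (−0.77) and E2F1 (−0.40), and also CDK4 and RB1. With library totals RB1, CKS1B and CCNY no longer passed (edgeR adjusted p = 0.2371, 0.2711 and 0.8275). Over all tested genes, 31.6% were lower and 28.7% higher at 4 h, and no list was tested against these shares. Of 4 CDKs tested, CDK6 fell (−0.54, SE 0.15, edgeR adjusted p = 0.007165) and CDK4 rose (0.35, SE 0.053, edgeR adjusted p = 5.226e-05, but −0.20 on GAPDH plus ACTB). CDK4, the partner of the D-type cyclins, was at 268.7, 274.6 and 265.3 CPM at 0 h and at 350.8, 359.7 and 323.0 at 4 h, with no overlap. CDK1 (−0.23) and CDK2 (0.13) did not pass, but with the replicate block CDK1 was called lower (edgeR adjusted p = 6.974e-06) and CDK2 higher on TMM scaling (edgeR adjusted p = 0.01174).

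Of 7 CDK inhibitors, 4 were tested and 2 fell (31.6% of all tested genes). CDKN1B, which encodes p27 and blocks CDK2 complexes, went from 34.6, 36.6 and 48.4 CPM at 0 h to 6.86, 7.54 and 7.95 at 4 h, a log2 difference of −2.42 (SE 0.16, edgeR adjusted p = 1.554e-08), larger than that of any of the 9 tested cyclins. CDKN2C was at −0.44 (edgeR adjusted p = 0.003222). CDKN1A (−0.021) and CDKN2D (−0.11) did not pass, and CDKN1C, CDKN2A and CDKN2B were below the count filter.

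In the RB and E2F list, 7 of 13 fell (31.6% of all tested genes), 2 rose on TMM scaling (28.7%) and 4 did not pass. E2F6 (−1.83), E2F3 (−1.64), E2F2 (−1.35), E2F8 (−1.23), E2F5 (−1.01), E2F7 (−0.87) and RBL1 (−0.58) fell. E2F proteins switch on or repress genes of the G1 to S transition, CCNE1 among them. TFDP1, which pairs with E2F proteins, was at 0.40 (edgeR adjusted p = 7.358e-06) and RB1 at 0.24 (edgeR adjusted p = 0.003496), but at −0.15 and −0.31 on GAPDH plus ACTB. E2F1 (0.15) and E2F4 (−0.20) did not pass (edgeR adjusted p = 0.07396 and 0.08019), but with the replicate block E2F1 was called higher on TMM scaling and E2F4 lower (edgeR adjusted p = 0.002668 and 0.002385).

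Among 9 CDK switches, 5 fell (31.6% of all tested genes) and 2 rose on TMM scaling (28.7%). WEE1, the kinase that holds CDK1 inactive, was at −2.09 (SE 0.14, edgeR adjusted p = 2.168e-08), and PKMYT1, which also phosphorylates CDK1, at 0.42 (edgeR adjusted p = 0.0005451, but −0.12 on GAPDH plus ACTB). The mitotic kinases AURKA (−1.59) and PLK1 (−0.72) fell, as did the CDK-activating phosphatase CDC25A (−1.21) and the CDK subunit CKS2 (−0.996). CKS1B was at 0.27 (−0.28 on GAPDH plus ACTB), and CDC25B (0.0078) and CDC25C (−0.16) did not pass.

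Of 11 genes for cyclin destruction, 6 fell (31.6% of all tested genes) and 1 rose on TMM scaling (28.7%). FBXO5, which encodes the inhibitor EMI1 of the anaphase-promoting complex and so protects cyclin A and B proteins, had the largest fall of all genes in these lists. FBXO5 was at 61.2, 70.0 and 77.3 CPM at 0 h and at 4.50, 3.77 and 4.93 at 4 h (−3.99, SE 0.15, edgeR adjusted p = 1.65e-10). AMBRA1, a receptor for the destruction of D-type cyclins, was at −1.58, and FBXW7, a receptor for that of cyclin E, at −0.95. FZR1 (−0.80), CUL1 (−0.74) and FBXO31 (−0.57) also fell. SKP1, an adaptor of SCF ligases, was at 0.39 (edgeR adjusted p = 4.324e-05, but −0.16 on GAPDH plus ACTB). CDC20 (0.054), SKP2 (0.076), UBE2C (−0.13) and UBE2S (0.014) did not pass, but UBE2C was called lower with the replicate block (edgeR adjusted p = 0.04057).

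Of 16 other cyclins 14 were tested, and 6 fell (31.6% of all tested genes), 3 rose on TMM scaling (28.7%) and 5 did not pass. CCNJL (−2.36), CCNT1 (−1.86), CCNJ (−1.15), CCNT2 (−0.72), CCNL1 (−0.52) and CCNK (−0.44) fell. CCNT1, CCNT2 and CCNK are partners of kinases that act on RNA polymerase II and not on the cell cycle. CCNL2 (0.71, edgeR adjusted p = 9.282e-06) and CCNI (0.54, edgeR adjusted p = 1.624e-06) rose on TMM scaling, and were at 0.17 and −0.017 on GAPDH plus ACTB. CCNY (0.17, edgeR adjusted p = 0.04912) was lost with DESeq2's size factors (edgeR adjusted p = 0.05006) and was at −0.38 on GAPDH plus ACTB. With the replicate block 6 of these 14 were called higher on TMM scaling, since CCNB3, CCNC and CCNG1 were added. Of all 12032 tested genes the block called 4429 higher. CCNB3, of the B class, averaged 17.3 counts and was at 0.66 with the block (edgeR adjusted p = 0.04332). On GAPDH plus ACTB CCNB3 was at 0.11 (edgeR adjusted p = 0.7738).

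**Figure D5:**
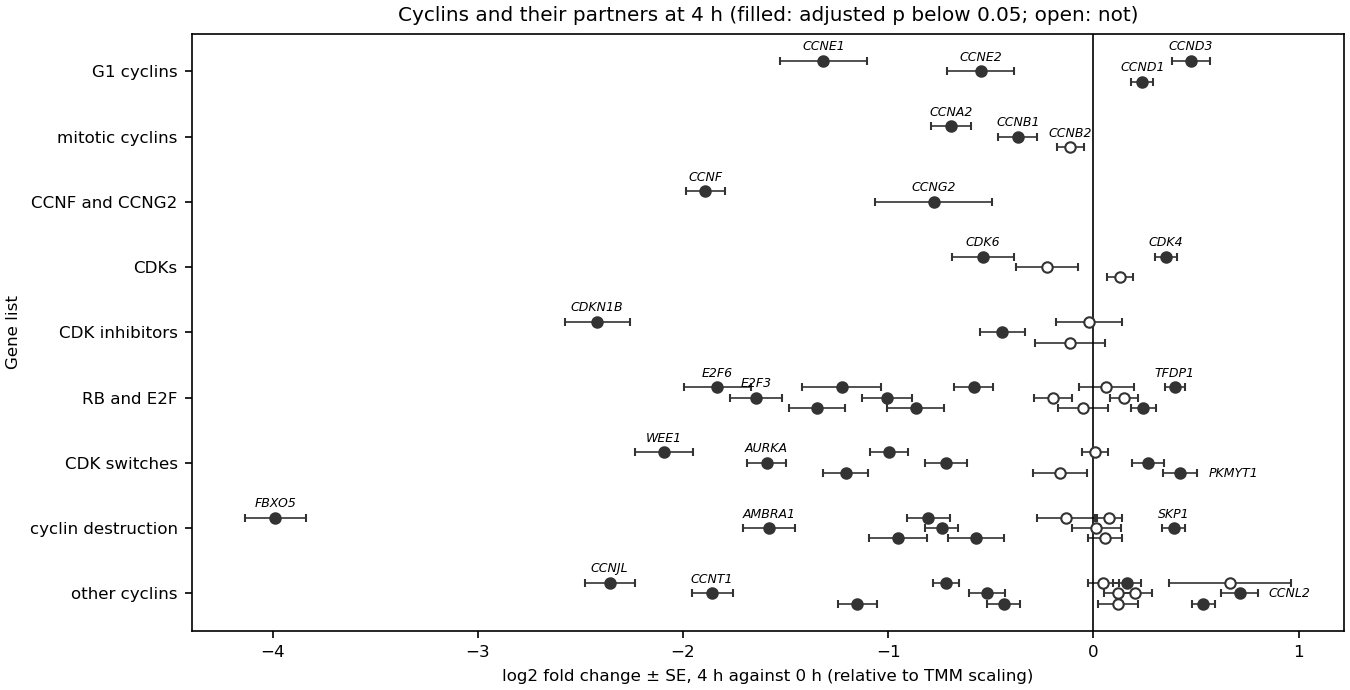
Log2 fold change at 4 h against 0 h ± SE (horizontal axis) of the tested cyclins and of the genes in each list (vertical axis), filled where the edgeR adjusted p was below 0.05 and open where it was not. FBXO5 at −3.99, CDKN1B at −2.42 and CCNJL at −2.36 lay below CCNF at −1.89; of the filled points right of 0 on this TMM scaling, 0 were called higher on GAPDH plus ACTB.

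By Pearson correlation of log2 CPM over the 12 libraries among 8855 genes averaging 100 counts or more, the genes most like CCND1 were RANBP1 (r = 0.973), NDUFB1 (0.963), C17orf89 (0.962), CD164 (0.957) and OAZ2 (0.956). Those most like CCNB1 were MRPS35 (0.968), DIABLO (0.965), CLPX (0.963), ZC3HC1 (0.958) and KPNA2 (0.953). These values describe the likeness of time courses, since the points share their libraries, times and scaling.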

How the data were processed

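Raw counts per gene symbol were deposited by the authors for the 12 libraries, and columns were matched to samples by title. The submitters' processing notes name FastQC, STAR and hg19 without versions. The paper's account of this kit (Prinseq, STAR, Salmon, tximport) does not name these libraries, and how strand and reads shared by paralogs were counted is not given in the sources used here. The 12032 genes averaging 10 counts or more were fitted with edgeR 4.0.16 in R 4.3.3 (TMM, glmQLFit and glmQLFTest, no block), with hours as a number or as 4 groups. Benjamini-Hochberg adjustment covered all tested genes, standard errors came from the F statistic, and half-lives are −1/slope. The script was tested on simulated data, drawn without a replicate effect and with most genes unchanged. That test therefore does not cover the pairing of replicates or the assumption of TMM scaling. Alternatives were DESeq2 1.42.0 and its size factors, library totals, GAPDH plus ACTB, other count filters, other time points, leaving out each replicate, and a replicate block. Same-numbered libraries deviated together in all 18 pairs (mean r = 0.431, 0.30 to 0.612), so the numbers in the titles pair the samples. For different numbers the mean r was −0.212. That value is no separate comparison, since the deviations of a gene cancel out within each time point. Replicates of a time differed by more than counting noise in 12 of 12 pairs (chi-square per degree of freedom 3.2 to 8.65), and edgeR's biological coefficient of variation was 0.0905. Coordinates and 3′ UTRs are from GENCODE version 44 (GRCh38), matched by symbol. The named genes were the 10 members, genes of the lists past the threshold at 4 h (members of the lists that did not pass are given as values), JUN, IER2, GAPDH and ACTB, and the 5 genes most like CCND1 and CCNB1. The members and lists were chosen with earlier results of these data known.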

Additional observations from a re-analysis of the deposited data

How the results depend on the processing

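Of 689 results for single cyclins under an alternative, 642 counted as the same, 22 lost the threshold, 21 gained it and 4 reversed. A reversal was a change of sign with a call in either setting. Results counted as the same kept their side of the threshold. Those called in neither setting could change sign, as CCND3 did at 2 h with GAPDH plus ACTB. The 4 reversals came with scaling to GAPDH plus ACTB: the slopes of CCND1 (−0.074) and CCND3 (−0.020) and their differences at 4 h (−0.31 and −0.075). That scaling called 0 cyclins higher by slope and 0 at 4 h, and 6 lower at 2 h. Library totals called 1 cyclin higher by slope and 1 at 4 h. With a mean of at least 100 counts, fewer cyclins were tested, and 3 were lower by slope and 3 at 4 h. Over 0, 1 and 2 h alone 3 were lower by slope and 1 higher. The replicate block called 1 cyclin lower at 1 h (CCNA2), 1 higher at 2 h (CCND3), 1 with a higher rate change (CCND1) and 1 lower in the second hour (CCNF), added the calls of CCNG2 at 2 h and CCNB2 at 4 h, and changed no other call of the 9 cyclins. In the partner lists at 4 h it added 8 calls (CDK1, CDK2, E2F1, E2F4, UBE2C, CCNB3, CCNC and CCNG1). DESeq2's test and its size factors each called 1 higher at 2 h (CCND3). CCNF was called lower in the second hour, 1 cyclin each, with library totals, DESeq2's size factors, no filter, a mean of at least 100 counts, the block, DESeq2's test and without replicate 3. Leaving out 1 replicate gave 1 to 2 cyclins lower at 2 h (3 with all libraries) and 0 to 1 lower in the second hour. The mitotic minus G1 slope was −0.130 with CCNF, −0.186 against D-type and 0.134 against E-type cyclins. Except as given, the cause was not tested. Over all tested genes the calls moved too. At 1 h, 269 genes were lower in the main analysis, 1261 with the block, 537 with GAPDH plus ACTB and 1 to 157 without 1 replicate. At 2 h, 1297 were higher, against 2877, 11 and 605 with the block, GAPDH plus ACTB and library totals. By slope, 3859 were lower and 3694 higher, against 2215 and 1447 over 0, 1 and 2 h, 7729 and 112 with GAPDH plus ACTB, and 4702 and 2244 with library totals. Counts of at most 66 per library limit CCND2, CCNE1 and CCNG2.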
